A study of Capra hircus with 9 samples.

Results

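Gene expression in the submandibular gland of goats aged 24 months was compared with that at 1 month, and the genes gained and lost over this interval are described with their value in every library. The 2 ages are 6 of the 9 RNA-seq libraries of the series, 3 from 1-month-old and 3 from 24-month-old goats, and each library came from a different female Lubo goat. All goats were kept under 1 regime, fasted and given xylazine hydrochloride as an anaesthetic before slaughter, whatever their age, and RNA was taken from the frozen gland without sorting of cells. The remaining 3 libraries, from 12-month-old goats, are given beside the others as values and enter 1 comparison of their own. Transcripts were summed to 21663 genes, of which 14992 had enough counts to be tested between 24 and 1 months. A gene was called where the adjusted p was under 0.05 and the absolute log2 fold change over 2 (edgeR quasi-likelihood test, Benjamini-Hochberg adjustment over all tested genes). Levels are given as CPM, counts per M counts (M, mega) on library sizes scaled by the trimmed mean of M values (TMM).

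The submandibular gland is built of acini, which make and export the proteins, water and salts of primary saliva, and of ducts, which change the salt content on the way to the mouth. Its secretory cells depend on the folding machinery of the endoplasmic reticulum, on mucin glycosylation and on nerves acting through muscarinic and adrenergic receptors. Plasma cells beneath the epithelium deliver immunoglobulin A (IgA), which the epithelium carries into saliva.

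The libraries held 20.1 to 26.3 M counts at 1 month and 21.0 to 22.0 M at 24 months, and 3 counts corresponded, as the mean over the libraries of an age, to 0.100 CPM at the former and 0.166 CPM at the latter. Markers of the labelled tissue were found in all 24-month libraries, with AQP5, the water channel of acini, at 500, 677 and 1040 CPM. At 1 month AQP5 was at 217 and 129 CPM in replicates 1 and 3 but at 0.495 CPM in the library labelled 1-month replicate 2. MUC19, a secreted gel mucin, was at 23130 and 17078 CPM in replicates 1 and 3 and at 51.1 CPM in replicate 2, and ZG16B, a secreted lectin, was at 12965, 6655 and 9.12 CPM in replicates 1, 3 and 2. The same library held the most counts of genes of developing T cells, with RAG1, a subunit of the recombinase that assembles antigen receptor genes, at 4252 CPM, against 1516 and 655 CPM in replicates 1 and 3. FOXN1, the master transcription factor of thymic epithelium, was at 80.5 CPM there and at 15.7 and 5.59 CPM in the other 1-month libraries, and it was at or under 0.103 CPM in all 24-month libraries. On log2 CPM across genes, which are not independent replicates, its Pearson correlation with replicates 1 and 3 was 0.797 and 0.790, against 0.934 between those. The library labelled 1-month replicate 2 thus stood apart and went against its label in these markers. The counts, and the calls found to depend on it among the genes named, are given with and without it. Replicates 1 and 3 also held these thymus markers, with RAG1 at 1516 and 655 CPM against at most 0.813 CPM at 24 months. Leaving out replicate 2 thus does not remove thymus markers from the 1-month group, and their origin was not tested.

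Between 24 and 1 months, 584 genes were higher at 24 months (3.9% of those tested) and 1372 were lower (9.15%), so that 70.1% of the 1956 called genes fell. The libraries of the 2 ages did not overlap for 580 of the genes called higher and for 1371 of those called lower. Over all tested genes such a separation was found for 20.0% upward and 23.7% downward. Calls and separation came from the same 6 libraries, so the separation is no further support for the calls. Without 1-month replicate 2, 671 genes were higher (4.37% of 15361 tested) and 1535 lower (9.99%), and 455 of the former and 1203 of the latter were shared with the calls from all 6 libraries. The counts depended on which 24-month library was left out: 289 genes were called without 24-month replicate 3, 446 without replicate 2 and 1276 without replicate 1. The number of higher genes was 280 without 1-month replicate 3. In all, 31 of the genes called higher and 226 of those called lower were called in every one of the 6 fits that left out 1 library. The part of cell composition was not tested, and in whole tissue fewer cells of a type and less RNA per cell cannot be told apart.

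**Figure D1:**
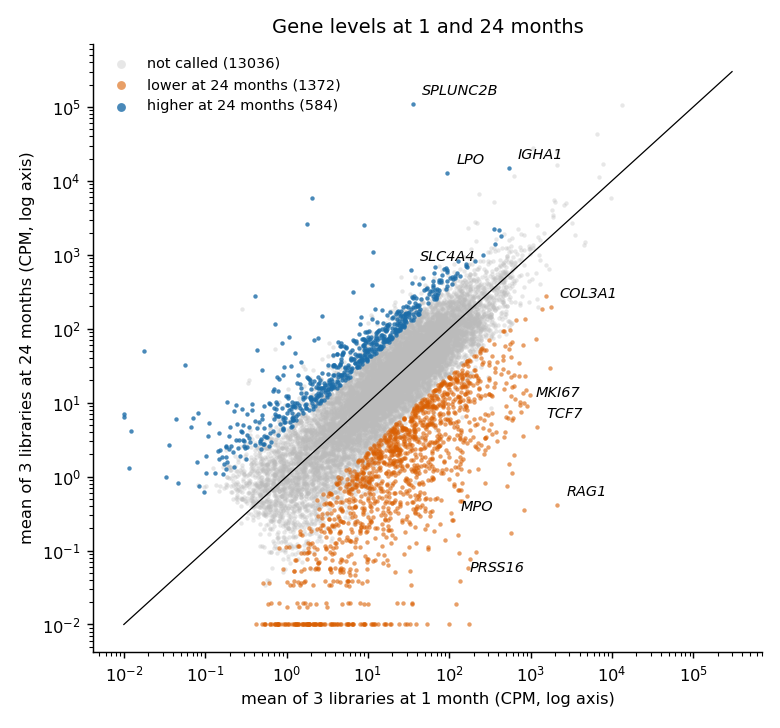
Mean CPM of each tested gene at 1 month (x axis) and at 24 months (y axis), both on log axes, with means under 0.01 CPM drawn at 0.01. The 584 genes called higher lie above the diagonal of equal level and the 1372 called lower below it, and many of the latter are at or near 0 at 24 months.

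A few genes took up a large share of the counts of the adult gland. The 10 genes with the most counts held 25.4% to 37.8% of all counts at 24 months, against 5.28% to 12.8% at 1 month and 23.8% to 33.2% at 12 months. Among called genes, the largest gain in CPM was that of SPLUNC2B, which encodes a secreted protein of the PLUNC family found in saliva and airway fluid. It held 0.00762%, 0.00457% and 0.00134% of the counts in 1-month replicates 1 to 3 and 12.4%, 10.5% and 4.08% in 24-month replicates 1 to 3. The mean CPM was 2983-fold higher at 24 months, and the fitted log2 fold change was 11.62 ± 1.54 (SE, adjusted p = 0.00508 by edgeR). At 12 months it held 2.72% and 3.08% in replicates 1 and 2 but 0.0322% in replicate 3, so that the libraries of that age differed widely among themselves.

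Other secreted proteins made up most of the named gains. Basic proline-rich proteins, which bind dietary tannins in saliva, were represented by a pair of loci that lie next to each other among the annotated genes and are near copies by product name, so that counts may be divided between them. LOC102178801 was at 3.85, 1.03 and 1.37 CPM in the 1-month libraries and at 4787, 5559 and 7200 CPM in the 24-month libraries, a log2 fold change of 11.56 ± 1.01 (adjusted p = 0.00228). LOC102170599 was at 2.30, 1.79 and 1.24 CPM and at 508, 2800 and 4443 CPM, with a log2 fold change of 10.62 ± 1.14 (adjusted p = 0.00283). That the 2 ages did not overlap was a condition for naming these loci. At 12 months the former was at 572, 3814 and 399 CPM and the latter at 100, 418 and 182 CPM, below every 24-month library in both cases.

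Lactoperoxidase (LPO), the antibacterial peroxidase of saliva and milk, was at 174, 9.76 and 98.9 CPM in 1-month replicates 1 to 3 and at 6610, 9024 and 22513 CPM in 24-month replicates 1 to 3. Its log2 fold change was 7.20 ± 1.30 (adjusted p = 0.012), and the 12-month libraries, at 9639, 6254 and 4346 CPM, were also above all 1-month libraries and reached below the lowest 24-month one. Without 24-month replicate 3 neither LPO nor the next gene was called. A pair of odorant-binding protein-like genes, members of the lipocalin family of carriers, rose with age. TCONS_00080589 rose from 24.0, 1.57 and 1.59 CPM to 2099, 4419 and 1121 CPM (log2 fold change 8.26 ± 1.49, adjusted p = 0.012). LOC108634314 had 1 count over the 3 libraries at 1 month and was at 108, 15.9 and 23.5 CPM at 24 months (adjusted p = 0.00313), and at 12 months it was at 9.46, 3.87 and 0 CPM. For both genes, 24-month values above all 1-month values were a condition of naming. The 24-month values of TCONS_00080589 overlapped its 12-month values of 6909, 692 and 169 CPM.

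Enzymes, a lectin and membrane proteins were also among the large rises, and LOC108634081, TCONS_00050903 and KLHL41 are described under other observations. LOC102182869, annotated as a primary amine oxidase, was at 23.8, 0.566 and 10.7 CPM at 1 month and at 1324, 640 and 1325 CPM at 24 months (log2 fold change 6.66 ± 1.25, adjusted p = 0.0137). PRRT3, a proline-rich transmembrane protein, rose from 1.93, 0.495 and 0.838 CPM to 58.2, 80.5 and 93.0 CPM (6.26 ± 0.63, adjusted p = 0.00275). CDH16, a cadherin known from kidney and thyroid epithelium, rose from 6.48, 0.495 and 1.12 CPM to 83.3, 155 and 203 CPM (5.89 ± 1.03, adjusted p = 0.0111). Complete separation of the ages was a condition for naming these 3 genes. Without 24-month replicate 3 neither LOC102182869 nor CDH16 was called. CLEC3A, a C-type lectin, was at most 0.778 CPM in the young libraries and between 24.2 and 33.5 CPM in the old (5.90 ± 0.88, adjusted p = 0.00725). DPP10, a peptidase relative that binds potassium channels, went from at most 0.297 CPM to between 7.54 and 12.3 CPM (5.84 ± 0.67, adjusted p = 0.00357), and LOC108634205, annotated as HRAS-like suppressor 3, from at most 3 counts in every 1-month library to between 24.2 and 45.7 CPM (adjusted p = 0.00255). The 12-month range of CLEC3A was 20.4 to 32.2 CPM and that of LOC108634205 was 24.4 to 60.4 CPM, both overlapping the 24-month range, while DPP10, at 15.6 to 23.8 CPM, was higher in every 12-month than in any 24-month library.

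**Figure D2:**
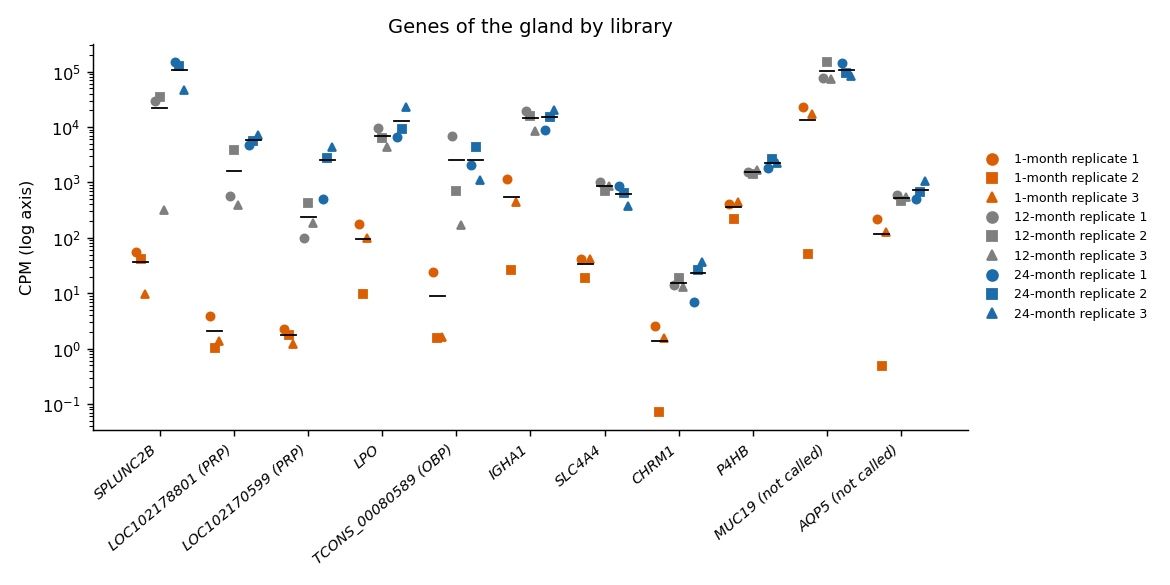
CPM on a log axis of 11 genes of the gland in each library, with colour for age, symbol for replicate and a bar for the mean of 3 libraries. PRP and OBP stand for proline-rich and odorant-binding protein. The 24-month libraries lie above all 1-month libraries, and the library labelled 1-month replicate 2 is the lowest of its age for most genes, far below the other 2 for MUC19 and AQP5.

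Of 26 tested genes of salivary secreted proteins, 5 were higher at 24 months (19.2%) and none was lower. The shares of all tested genes were 3.9% and 9.15%, and the median log2 fold change was 2.43 against -0.04 over all tested genes. The 5 were LPO, MUC5B, PIP, CST6 and MUC5AC. PIP, a small secreted protein of exocrine glands, was at 3.06, 0 and 1.44 CPM at 1 month and at 25.6, 14.8 and 66.5 CPM at 24 months (log2 fold change 4.69 ± 1.30, adjusted p = 0.0425). CST6, a cysteine protease inhibitor, rose from at most 0.671 CPM to between 2.82 and 8.67 CPM (3.67 ± 0.70, adjusted p = 0.0141). The gel mucin MUC5B was at 0.667, 0.212 and 0.419 CPM at 1 month and at 0.522, 17.0 and 136 CPM at 24 months, so that the ages overlapped although the gene was called (7.0 ± 1.73, adjusted p = 0.0302). The ages also overlapped for MUC5AC, another gel mucin, at 0.778, 1.41 and 1.03 CPM and at 12.3, 1.24 and 10.3 CPM (2.94 ± 0.83, adjusted p = 0.0453). A further locus annotated as a prolactin-inducible protein homolog, LOC102181752, held 0.426%, 0.000334% and 0.442% of counts at 1 month and 1.13%, 1.98% and 1.02% at 24 months and was not called (3.07 ± 1.64, adjusted p = 0.227), and counts may be divided between it and PIP.

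Several well-known saliva proteins of the list did not pass the test with all 6 libraries, and their 1-month values were far apart. CA6, the secreted carbonic anhydrase of saliva, was at 679, 1.24 and 18.9 CPM at 1 month and at 5082, 9255 and 5518 CPM at 24 months (adjusted p = 0.104). MUC19 (adjusted p = 0.217 by edgeR and 24-month values of 84084 to 141310 CPM) and ZG16B (adjusted p = 0.269 and 40297 to 45167 CPM) were also separated between the ages. Such an upward separation was found for 20.0% of all tested genes. Without 1-month replicate 2, 12 of 26 genes of this list were higher, and MUC19 (log2 fold change 2.50 ± 0.51, adjusted p = 0.00878), ZG16B (2.2 ± 0.49, adjusted p = 0.0117), CA6 (4.34 ± 1.25, adjusted p = 0.0311) and the kallikrein LOC102177186, matched to KLK1 by its product name (KLK1, 3.39 ± 0.66, adjusted p = 0.00771) were among them. Without 24-month replicate 3 none of the list was called higher.

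Of 26 tested genes for ion and water transport, 4 were higher (15.4%) and 1 was lower (3.85%) at 24 months. Of all tested genes 3.9% were higher and 9.15% lower, and the median log2 fold change of the list was 2.05. SLC4A4, the sodium bicarbonate cotransporter that loads secretory cells with bicarbonate, showed the clearest rise, from 41.6, 19.2 and 41.0 CPM to 858, 642 and 380 CPM (4.30 ± 0.55, adjusted p = 0.00449). The 12-month libraries held 1004, 705 and 855 CPM of it, above or within the 24-month range. ANO1, the calcium-activated chloride channel of acini (2.57 ± 0.73, adjusted p = 0.0456), and SCNN1G, a subunit of the ductal sodium channel (2.43 ± 0.65, adjusted p = 0.0384), rose as well, although SCNN1G was under the log2 fold threshold without 1-month replicate 2 (1.94). AQP3, a water and glycerol channel, fell from 10.8, 38.1 and 19.2 CPM to 2.38, 4.06 and 6.72 CPM (log2 fold change -2.28 ± 0.63, adjusted p = 0.0417), and was no longer called without 1-month replicate 2 (-1.68 ± 0.50, adjusted p = 0.0353). AQP5 itself missed the threshold (adjusted p = 0.198), and passed it without 1-month replicate 2 (2.18 ± 0.45, adjusted p = 0.00908), when 9 of the list were higher. The number higher was 1 in each fit without 1-month replicate 3 or without any 24-month library.

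Among 11 autonomic receptors, only CHRM1, a muscarinic receptor for acetylcholine, was called. It was higher, which made 9.09% of the list, against 3.9% of all tested genes. It was at 2.56, 0.0708 and 1.54 CPM at 1 month and at 7.08, 26.6 and 37.3 CPM at 24 months (4.22 ± 1.09, adjusted p = 0.0349). No receptor of the list was called without 1-month replicate 3 or without any 24-month library. CHRM3, the main muscarinic receptor of salivary acini, was at 53.8, 0.212 and 39.5 CPM and at 97.3, 84.8 and 72.7 CPM, and was not called (1.56 ± 1.21, adjusted p = 0.397). The values of CHRM3 in replicates 1 and 3 at 1 month lay closer to the adult ones than those of CHRM1 did, and the difference between the genes was not tested.

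Of 55 tested genes for protein folding and export in the endoplasmic reticulum, 7 were higher (12.7%, against 3.9% of all tested genes). None was lower (against 9.15%), the fitted change was above 0 for 53 of the 55, and the median log2 fold change was 1.37. P4HB, protein disulfide isomerase, rose from 403, 220 and 436 CPM to 1794, 2666 and 2283 CPM (2.79 ± 0.53, adjusted p = 0.014). CREB3L1, a membrane-bound transcription factor of secretory cells (2.87 ± 0.69, adjusted p = 0.0281), DERL2 of the degradation channel (2.76 ± 0.40, adjusted p = 0.0068), SEC23B of the export coat (2.24 ± 0.39, adjusted p = 0.0107), SPCS1, SSR4 and KDELR2 made up the others. HDLBP, an RNA-binding protein of the translation apparatus outside this list, was even within each age, at 446, 412 and 432 CPM and at 1282, 1989 and 2071 CPM (2.15 ± 0.48, adjusted p = 0.0214). DERL2 and SEC23B were also separated without overlap, at 20.7 to 38.7 against 169 to 208 CPM and at 63.3 to 89.7 against 285 to 359 CPM. Over all tested genes, 20.0% were separated in this direction. Without 1-month replicate 2 the list also had 7 higher genes, but SPCS1 (1.88) and KDELR2 (1.67) were then under the log2 fold threshold. Without 24-month replicate 2 or 3, 1 gene of the list was higher.

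Of 28 genes of mucin-type glycosylation, 3 were higher (10.7%, against 3.9% of all tested genes) and 4 were lower (14.3%, against 9.15%). GALNT6, which starts O-glycan chains, rose from 129, 14.6 and 113 CPM to 648, 643 and 620 CPM (3.02 ± 0.75, adjusted p = 0.0308), and CHST4, a sulfotransferase, from at most 1.26 CPM to 6.62, 14.5 and 3.54 CPM (3.59 ± 0.98, adjusted p = 0.0403). GNE, the first enzyme of sialic acid synthesis, was the third gene called higher, and was under the log2 fold threshold without 1-month replicate 2 (1.86). In contrast, C1GALT1, which extends the chain to core 1, fell from 77.2, 29.6 and 59.7 CPM to 13.8, 7.33 and 4.87 CPM (-2.59 ± 0.53, adjusted p = 0.0172). ST6GAL1, a sialyltransferase of N-glycans, fell from 57.0, 130 and 61.5 CPM to 11.6, 10.9 and 7.80 CPM (-2.96 ± 0.47, adjusted p = 0.00831), and GCNT4 and B3GNT3 fell as well. None of the 7 was called without 24-month replicate 2 or without 24-month replicate 3.

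Among the transcription factors of salivary epithelium, 1 of 23 was higher (4.35%, close to the 3.9% of all tested genes). This was ELF3, at 24.4, 3.47 and 17.2 CPM and at 42.0, 86.7 and 118 CPM (2.58 ± 0.72, adjusted p = 0.0431). The acinar factor BHLHA15 was at 101, 0.530 and 85.9 CPM and at 264, 370 and 457 CPM and was not called (adjusted p = 0.178). It was higher without 1-month replicate 2, as were SPDEF and ELF3, while GATA6 was then lower (-2.08, adjusted p = 0.0413). No factor of the list was higher without 1-month replicate 3 or without any 24-month library. Of 15 genes of epithelial keratins and junctions, 4 were higher (26.7%) and 1 was lower (6.67%, against 9.15% of all tested genes). CLDN3 of tight junctions rose from 7.78, 0.460 and 6.01 CPM to 26.6, 40.1 and 69.6 CPM (3.38 ± 0.90, adjusted p = 0.0379), and KRT18, a keratin of simple epithelia, from 91.2, 69.1 and 52.2 CPM to 211, 400 and 425 CPM (2.39 ± 0.47, adjusted p = 0.0157). No gene of this list was higher without 1-month replicate 3 or without 24-month replicate 2 or 3. None of 14 myoepithelial and smooth muscle genes was called, and ACTA2, smooth muscle actin, was at 175, 43.0 and 138 CPM and at 148, 255 and 183 CPM. Of 20 genes of FGF and EGF signalling, 2 were higher (10%, against 3.9% of all tested genes). These were the receptors FGFR3 (matched by product name, 2.56 ± 0.55, adjusted p = 0.0193) and ERBB2 (2.87 ± 0.81, adjusted p = 0.045). None of this list was higher without any one of the 24-month libraries.

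The summed level of the epithelial list was itself higher in the older gland. It made up 0.144%, 0.0982% and 0.117% of counts in the 1-month libraries and 0.176%, 0.247% and 0.292% in the 24-month ones. Each gene was therefore also set against the summed count of that list, as a description chosen after the values were seen. On this scale 363 of the 584 genes called higher (62.2%) still lay wholly above the 1-month libraries, while 3.11% of all tested genes did. The 584 were called from the same libraries, so their larger share is no separate support. SPLUNC2B was 1147-fold, LOC102178801 993-fold, LPO 44.8-fold, SLC4A4 6.78-fold and P4HB 2.15-fold higher per epithelial count, while KRT18, a member of the list itself, was 1.63-fold higher. All 1372 genes called lower were still wholly below, but so were 63.6% of all tested genes. The list did not follow the salivary markers in 1-month replicate 2. There it summed to 906 CPM, against 1071 and 858 CPM in replicates 1 and 3. The salivary secreted proteins summed to 592 CPM there, against 43746 and 28920 CPM. The ratio thus does not remove the low salivary level of that library.

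The heavy chain of immunoglobulin A was among the gains. IGHA1, the heavy chain of IgA, was at 1145, 25.7 and 451 CPM at 1 month and at 8925, 15309 and 20374 CPM at 24 months (4.91 ± 1.29, adjusted p = 0.0367), and the 12-month libraries were at 19254, 15774 and 8549 CPM. IGHA1 was no longer called without 1-month replicate 3 or without any 24-month library. Counts of immunoglobulin chains may be divided among near-identical segments. PIGR, the receptor that carries IgA across the epithelium, was at 833, 4.74 and 1015 CPM and at 9721, 16073 and 8848 CPM and was not called (adjusted p = 0.0797), but was called without 1-month replicate 2 (3.75 ± 0.50, adjusted p = 0.0015). Of 18 genes of plasma cells and IgA export, 1 was higher (5.56%) and 2 were lower (11.1%), close to the shares of all tested genes, 3.9% and 9.15%. The one that rose was CCR10, a homing receptor of IgA plasma cells, at 0.630, 0.142 and 0.168 CPM and at 1.22, 2.31 and 3.69 CPM (3.05 ± 0.86, adjusted p = 0.0453), and it was not called without 1-month replicate 2 (2.69 ± 0.90, adjusted p = 0.0529). SLAMF7, an activating receptor of plasma cells and other lymphocytes, fell from 21.0, 25.9 and 13.7 CPM to 1.57, 2.25 and 0.718 CPM (-3.64 ± 0.58, adjusted p = 0.00797), and FCRL5, a receptor of B cells, fell with it. JCHAIN, the joining chain of polymeric IgA, was at 346, 3.68 and 851 CPM and at 1793, 743 and 970 CPM, and the ages overlapped (adjusted p = 0.398).

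The losses were led by genes of developing T cells. Of 30 tested thymocyte and T cell genes, 28 were lower at 24 months (93.3%, against 9.15% of all tested genes). None was higher (against 3.9%), and the median log2 fold change was -6.48. RAG1 had the largest loss in CPM among called genes, from 1516, 4252 and 655 CPM to 0.813, 0.169 and 0.257 CPM (log2 fold change -12.29 ± 1.28, adjusted p = 0.00283). DNTT, the template-free polymerase that adds bases at receptor junctions, fell from 162, 158 and 67.4 CPM to 0.174, 0.113 and 0.205 CPM (-9.49 ± 0.66, adjusted p = 0.00215). CCR9, a chemokine receptor of thymocytes, fell from 241, 1380 and 114 CPM to 0.407, 0.0564 and 0.0513 CPM (-11.67 ± 1.53, adjusted p = 0.00471). TCF7, a transcription factor of T cell commitment, fell from 415, 2924 and 269 CPM to 2.03, 3.94 and 7.95 CPM (-7.95 ± 1.29, adjusted p = 0.0084), and CD3E, a chain of the receptor complex, from 159, 1121 and 120 CPM to 3.31, 3.94 and 3.08 CPM (-7.02 ± 1.08, adjusted p = 0.00773). The 1-month replicate 2 was the highest for most of these genes. For the 5 genes named, replicates 1 and 3 also lay above every 24-month library, which was a condition for naming RAG1, CCR9 and TCF7. Without replicate 2 the list still had 25 lower genes. The number was 12 without 24-month replicate 3.

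Several markers of the thymic stroma were lower too. Of 13 thymic epithelial genes, 7 were lower (53.8%, against 9.15% of all tested genes) and none was called higher (against 3.9%). The fitted change was above 0 for 3 of the 13, and 3 had all 24-month libraries above all 1-month ones. That is close to the 20.0% of all tested genes that were separated upward. Without 1-month replicate 2, CLDN4 of the list was called higher (2.21 ± 0.42, adjusted p = 0.00672 by edgeR). PRSS16, a serine protease of thymic cortex, was at 85.6, 290 and 34.8 CPM at 1 month and had 2 counts in all at 24 months, a ratio of 3516 with a counting interval (95%, exact) of 973 to 29037 (adjusted p = 0.00309). TBATA, FOXN1, PAX1, PSMB11, CCL25 and LY75 (matched by product name) also fell. LY75 was just under the log2 fold threshold without 1-month replicate 2, and 3 genes of the list were lower without 24-month replicate 2 or 3. FOXN1 (adjusted p = 0.00797) was in the young libraries at the values given above. CD1 molecules present lipid antigens and are carried by cortical thymocytes and dendritic cells. The newly assembled gene TCONS_00008954, annotated as CD1b-3, was at 75.2, 22.9 and 20.5 CPM at 1 month and had no count in any 12- or 24-month library, which makes it at least 238-fold lower at 24 months against a floor of 3 counts per library (adjusted p = 0.00433). The T cell receptor beta segment LOC102180106, at 19.7, 47.6 and 6.06 CPM, was at least 148-fold lower (adjusted p = 0.00797). The CD1 and receptor segments belong to families of near-identical copies, so that the single loci are uncertain. GGT5, an enzyme of glutathione metabolism, was at least 180-fold lower, from 12.2, 65.7 and 11.7 CPM (adjusted p = 0.00825). LOC102185549, annotated as multidrug resistance-associated protein 4, was at least 171-fold lower, from 20.2, 41.3 and 23.5 CPM (adjusted p = 0.00283).

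Genes of cell division fell nearly as a whole. Of 45 cell cycle genes, 38 were lower (84.4%, against 9.15% of all tested genes). The fitted change was below 0 for all 45, and the median log2 fold change was -5.01. MKI67, the proliferation antigen, went from 401, 1876 and 408 CPM to 4.76, 5.52 and 16.7 CPM (-6.57 ± 1.00, adjusted p = 0.00773). TOP2A, the topoisomerase of dividing cells, went from 454, 375 and 317 CPM to 3.43, 2.03 and 3.64 CPM (-6.89 ± 0.51, adjusted p = 0.00215), with little spread at either age. TOP2A in 1-month replicate 2 was between the other 2, while MKI67 there was the highest. Replication histones fell as well. LOC102180587, annotated as histone H2B, was at 634, 3945 and 632 CPM and at 6.73, 21.4 and 59.0 CPM (-5.83 ± 1.21, adjusted p = 0.0178), and LOC108633412, annotated as histone H3.1, at 337, 2264 and 332 CPM and at 2.26, 7.83 and 28.1 CPM (-6.19 ± 1.31, adjusted p = 0.0188), where reads may be divided among copies. The tubulin gene LOC102178700 fell from 970, 2786 and 837 CPM to 206, 372 and 261 CPM (-2.37 ± 0.65, adjusted p = 0.0408). Of the 43 genes named by size of change it was the 1 no longer called without 1-month replicate 2. Several list members given elsewhere also lost their call in that fit. The summed level of the cell cycle list was 3169, 7840 and 2633 CPM at 1 month and 272 to 315 CPM at 24 months, and the list had 34 lower genes without 1-month replicate 2 and 18 without 24-month replicate 3. The summed thymocyte list moved with it, at 6884, 27021 and 3910 CPM against 572 to 963 CPM. Its part in the fall of cell cycle genes was not tested.

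**Figure D3:**
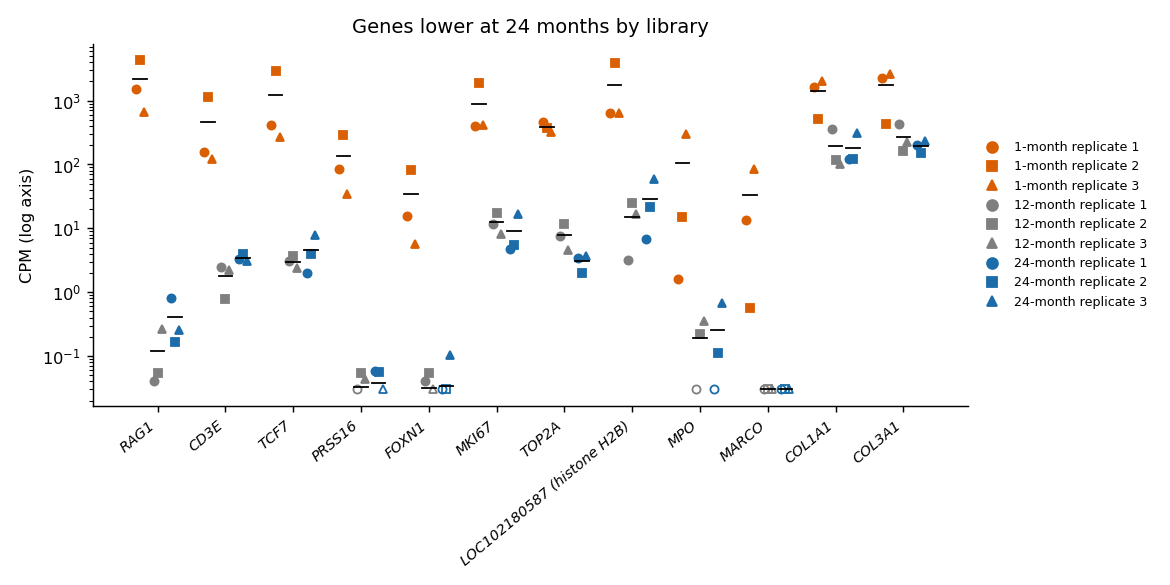
CPM on a log axis of 12 genes lower at 24 months in each library, with colour for age, symbol for replicate and a bar for the mean of 3 libraries. Open symbols at the bottom stand for values under 0.03 CPM. All 24-month libraries lie below all 1-month libraries, and the 1-month library with the highest value is replicate 2 for thymocyte and histone genes but replicate 3 for MPO, MARCO and the collagens.

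Genes of neutrophils and their precursors formed a separate pattern within the 1-month group. Of 13 tested genes, 8 were lower at 24 months (61.5%, against 9.15% of all tested genes). The median log2 fold change was -5.82, and the 1-month level of the list came mostly from replicate 3. MPO, myeloperoxidase of granules, was at 1.63, 15.3 and 304 CPM at 1 month and at 0, 0.113 and 0.667 CPM at 24 months (adjusted p = 0.0313). The named losses PRG3 (3.65, 33.1 and 487 CPM), an eosinophil granule protein, BAC7.5 (0.815, 9.09 and 285 CPM) and LOC102170003 (0.679, 8.46 and 150 CPM), both cathelicidin antimicrobial peptides, and AZU1 (1.70, 4.53 and 51.5 CPM), azurocidin, had the same order of libraries. None of these 4 had a count at 24 months, so that they were at least 1052-, 594-, 321- and 116-fold lower, with adjusted p of 0.0237, 0.0403, 0.0372 and 0.0239. A second PRG3-like gene, LOC102180520, at 1.72, 17.8 and 347 CPM, had 1 count at 24 months. Leaving out any 24-month library removed the call from these 5 named losses. Of the list, 3 genes were lower without 1-month replicate 3, and 2, 1 and 0 without 24-month replicates 1, 2 and 3 in turn. The summed level of the list was 55.1, 144 and 1291 CPM at 1 month and 21.7 to 28.7 CPM at 24 months.

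Of 17 macrophage and antigen-presenting genes, 8 were lower (47.1%, against 9.15% of all tested genes) and none was higher (against 3.9%). MRC1, the mannose receptor of macrophages, fell from 81.9, 37.9 and 264 CPM to 15.6, 7.33 and 12.5 CPM (-3.33 ± 0.72, adjusted p = 0.0202), and the complement component C1QA from 122, 143 and 456 CPM to 39.8, 48.2 and 54.6 CPM (-2.22 ± 0.57, adjusted p = 0.0341). MARCO, a scavenger receptor, was at 13.6, 0.566 and 85.0 CPM and had no count at 24 months, at least 199-fold lower (adjusted p = 0.0308). Replicate 3 was the highest 1-month library for all 3. Of 16 B cell genes, 9 were lower (56.25%, against 9.15% of all tested genes). Among them were PAX5, the factor of B cell identity (6.19, 11.4 and 33.6 CPM against 0.407, 0.169 and 1.33 CPM, adjusted p = 0.0171 by edgeR), and MS4A1, the CD20 antigen (adjusted p = 0.0187). LAPTM5, a lysosomal protein of blood cells in general, fell from 568, 2273 and 708 CPM to 69.3, 76.6 and 74.6 CPM (-3.94 ± 0.69, adjusted p = 0.0111), and IKZF3, a lymphocyte transcription factor, from 583, 1681 and 368 CPM to 17.1, 15.3 and 12.1 CPM (-5.82 ± 0.76, adjusted p = 0.00469). Of 7 genes of lymph node stroma, 4 were lower (57.1%) and 1 was higher (14.3%), against 9.15% and 3.9% of all tested genes. The 4 included the chemokine CCL19, and the 1 higher was CHST4, which the glycosylation list also holds. No macrophage gene was lower without 24-month replicate 1, 2 or 3, and 2, 1 and 1 B cell genes were.

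**Figure D4:**
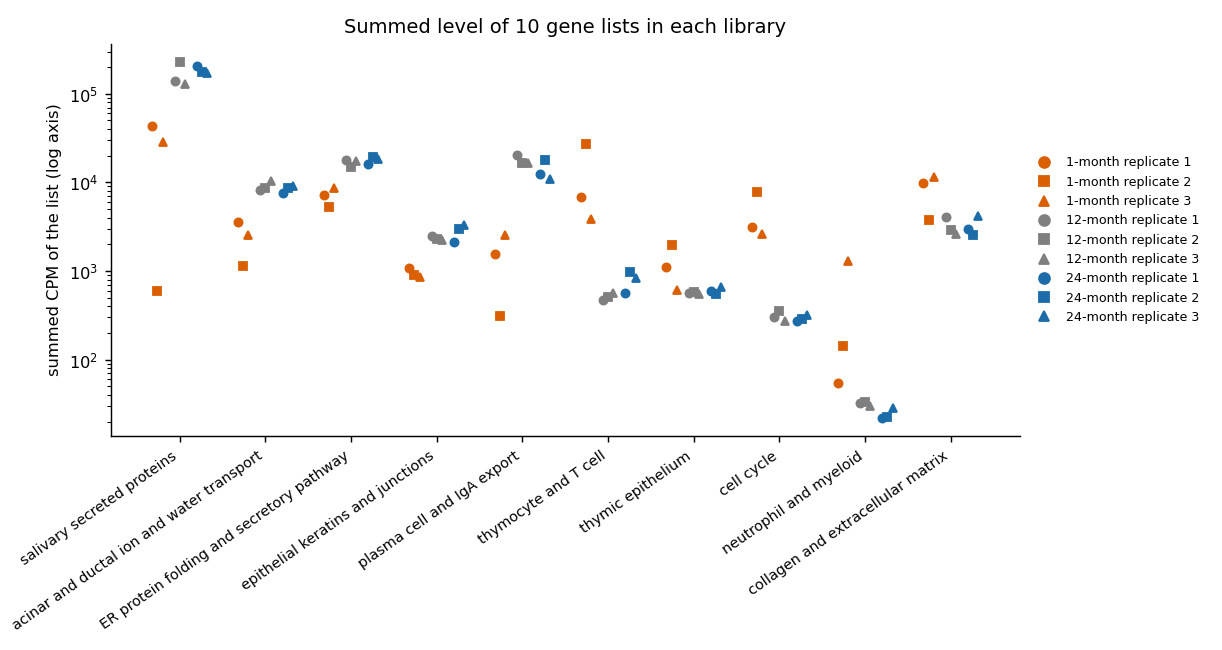
Summed CPM on a log axis of 10 gene lists in each library, with colour for age and symbol for replicate. The library labelled 1-month replicate 2 is the lowest for secreted proteins and the highest for thymocyte, thymic epithelial and cell cycle genes and 1-month replicate 3 is the highest for neutrophil genes.

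Of 37 genes of collagen and extracellular matrix, 10 fell (27.0%, against 9.15% of all tested genes) and none rose (against 3.9%). The fitted change was above 0 for 10 others, and the median log2 fold change was -0.85. COL3A1 fell from 2280, 436 and 2562 CPM to 205, 149 and 237 CPM (-3.05 ± 0.71, adjusted p = 0.0243), and COL1A1 from 1635, 522 and 2047 CPM to 121, 120 and 306 CPM (-2.82 ± 0.69, adjusted p = 0.0283). Here 1-month replicate 2 was the lowest of its age, opposite to the thymocyte genes. TNC, tenascin of growing and healing tissue, fell from 133, 393 and 192 CPM to 15.5, 18.9 and 24.2 CPM (-3.54 ± 0.55, adjusted p = 0.00782), and FBN2, the fibrillin of young microfibrils, from 6.15, 3.11 and 7.99 CPM to 0.116, 0 and 0 CPM (adjusted p = 0.00797). Elastin (ELN), fibronectin (FN1), periostin (POSTN), COL1A2, COL5A2 and THBS2 were the others. Without 1-month replicate 3, 4 genes of this list were lower, and without each of the 24-month libraries in turn 3, 1 and 1.

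Of 20 growth and imprinted genes, 3 were lower (15%, against 9.15% of all tested genes), and 2, 1 and 0 without 24-month replicates 1, 2 and 3 in turn. IGF2BP3, an RNA-binding protein of fetal tissue, fell from 26, 37.5 and 21.7 CPM to 1.22, 0.113 and 1.39 CPM (-4.89 ± 0.80, adjusted p = 0.00878), PEG10, an imprinted gene derived from a retroelement, from 110, 206 and 108 CPM to 22.6, 15.6 and 17.5 CPM (-2.86 ± 0.44, adjusted p = 0.0077), and IGFBP3, a carrier of insulin-like growth factors, from 13.0, 9.37 and 52.6 CPM to between 2.25 and 2.32 CPM (-3.33 ± 0.70, adjusted p = 0.0188). IGF2 itself was at 370, 165 and 478 CPM and at 108, 266 and 246 CPM and was not called (adjusted p = 0.491). Skeletal muscle genes had 5 lower (33.3%) and 1 higher (6.67%) of 15, against 9.15% and 3.9% of all tested genes. Without 24-month replicates 1, 2 and 3 in turn, 2, 1 and 0 muscle genes were lower. TTN, the giant spring protein of the sarcomere, was at 139, 36.6 and 40.2 CPM and at 4.47, 1.58 and 1.69 CPM (adjusted p = 0.00782), and at 231 CPM in 12-month replicate 2. Of 14 adipocyte genes, 2 were lower (14.3%, against 9.15% of all tested genes). The number was 11 without 1-month replicate 2, and 1, 0 and 0 without 24-month replicates 1, 2 and 3 in turn. The 2 were DGAT2 of triglyceride synthesis (34.0, 6.33 and 20.8 CPM against 1.57, 1.80 and 3.39 CPM, adjusted p = 0.0214) and UCP1, the uncoupling protein of brown fat (2.07, 3.68 and 1.15 CPM against 0, 0.0564 and 0 CPM, adjusted p = 0.0122). Of 17 endothelial genes only APLN, the peptide apelin, was higher (2.61 ± 0.52, adjusted p = 0.0157). This was 5.88% of the list, close to the 3.9% of all tested genes, and none of the list was higher without 24-month replicate 2 or 3. Of 22 interferon-stimulated genes 3 were lower (13.6%, against 9.15% of all tested genes), and 0, 1 and 0 without 24-month replicates 1, 2 and 3 in turn. None of 32 genes of the mitochondrial respiratory chain was called, although all 32 fitted changes were above 0. Only 1 erythroid gene could be tested, and it was not called.

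**Figure D5:**
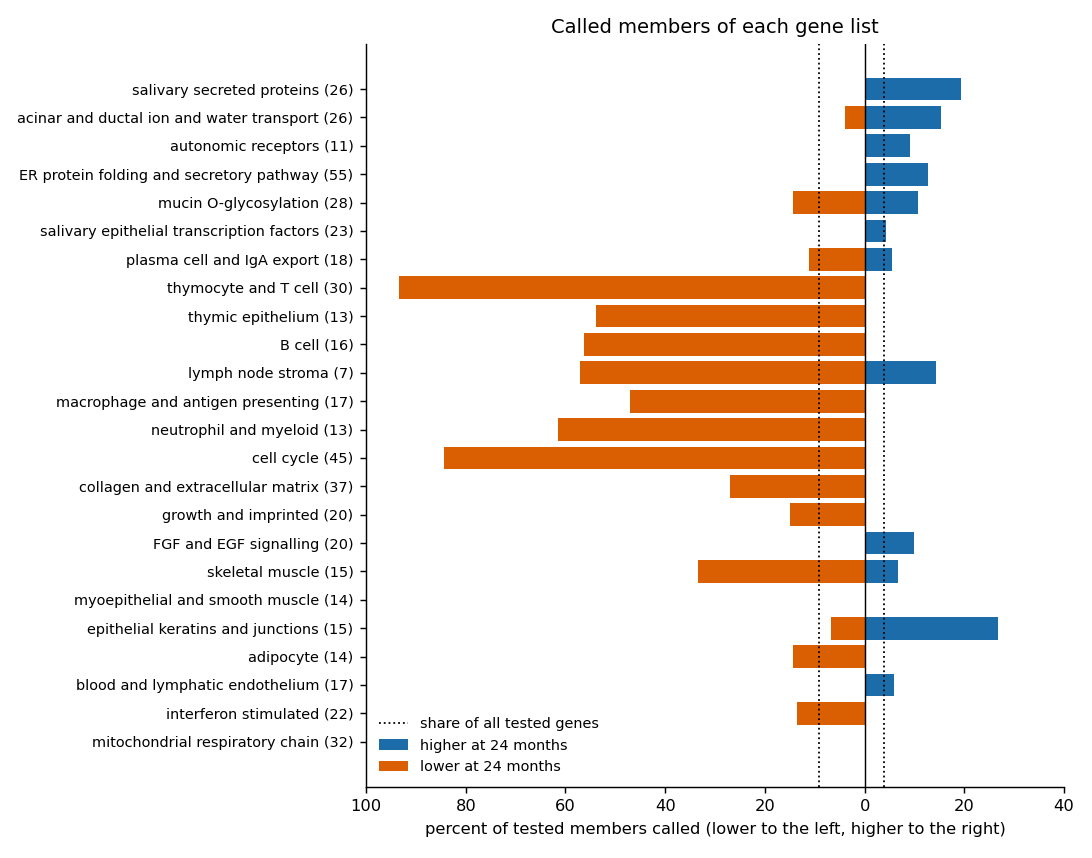
Percent of the tested members of each gene list called higher (right, blue) or lower (left, orange) at 24 months, with the number tested in parentheses and dotted lines at the share of all tested genes, 3.9% higher and 9.15% lower. Thymocyte and T cell genes (93.3% lower) and cell cycle genes (84.4% lower) stand farthest from the dotted line, and the highest share of rises is that of epithelial keratins and junctions (26.7%).

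Some genes passed from presence to near absence. There were 140 genes with at least 1 CPM in every 1-month library and no more than 3 counts, rounded, in any 24-month library, and 139 were called. The reverse, at most 3 counts in every 1-month library and at least 1 CPM in every 24-month library, held for 4 genes, all called: LOC108634205, LOC108634314, LOC102174897, annotated as cytochrome P450 4X1, and C14H8ORF82. LOC102174897 had no count at 1 month and was at 7.55, 11.0 and 2.36 CPM at 24 months (adjusted p = 0.00765).

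Whether these genes still differed in the last year was asked by comparing the 24- with the 12-month libraries. Of 14290 genes tested, none was called (0.0%) by the quasi-likelihood test of edgeR, against 1556 with an unadjusted p under 0.05. DESeq2 called 13 genes and the exact test of edgeR 16, and 167 were called without 24-month replicate 1. The 584 genes higher than at 1 month had a median log2 difference of 0.61 between 24 and 12 months against 0.03 over all genes, and the smallest adjusted p among them was 0.08. For 928 of the 1372 lower genes that could be tested, the median was -0.06. These medians share the 24-month libraries with the selection of the genes, and were not tested. SPLUNC2B (log2 difference 2.37), LOC102178801 (1.91) and LOC102170599 (3.51) each had an adjusted p of 0.431.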

How the data were processed

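RNA of whole submandibular glands from 9 female Lubo goats was depleted of ribosomal RNA and sequenced with strand kept on an Illumina instrument. The authors removed remaining ribosomal reads with Bowtie2 2.2.8, aligned with TopHat2 2.1.1, assembled transcripts with Cufflinks and deposited expected counts from RSEM for 52739 transcripts. The genome build is not given in the sources used here. The deposited expected counts were inferred to be multiplied by 1 factor per library. Of values between 0.3 and 60, 22.4% to 27.4% per library lay within 0.006 of whole multiples of a step of 0.439 to 1.17. The other low values lay off these multiples. Apart from 24-month replicate 3, whose step was 1, 0.648% to 4.03% lay at whole numbers as deposited. Upper quartiles were nearly equal (138.8 to 145.0). Values were divided by the step, which gave 20.1 to 26.3 M counts per library, summed to 21663 genes and rounded. This departs from the plan, which took the deposited values as unscaled counts; those are kept as an alternative, as is each other setting added after seeing the data (the block for 24 against 12 months, the ratio to epithelial counts).

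The libraries of 2 ages were compared with edgeR 4.0.16 (R 4.3.3), using filterByExpr to drop low genes, TMM factors, and the quasi-likelihood test with p-values adjusted after Benjamini and Hochberg. Standard errors were the fold change divided by the root of F. The thresholds are those of the study, except that its filter on FPKM was not applied. Levels used TMM sizes of all 9 libraries. Floors of 3 counts and intervals cover counting error only. Gene names are those of the table, 42652 of 42686 known identifiers matched RefSeq, and 31 genes were found by product name. Named genes were the 15 largest fitted rises and falls among called genes whose ages do not overlap and whose mean is at least 10 CPM at the higher age, the 10 largest differences in CPM in each direction, and members of 25 gene lists. Members and lists were chosen with earlier results of these data known. Alternatives were other normalization factors, DESeq2 1.42.0, the exact test of edgeR, no low-count filter, all 9 libraries in 1 fit, transcripts, a replicate block and leaving out each library. The fits were tested on simulated data. No sequences are printed, and some genes that belong to these counts are not reported here.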

Additional observations from a re-analysis of the deposited data

How the results depend on the processing

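None of the 43 genes named by size of change reversed direction under the gene-level alternatives (1, BAC7.5, had no adjusted p in DESeq2). Between 24 and 1 months, other normalization factors, DESeq2, the exact test, no low-count filter, all 9 libraries in 1 fit, the block and the deposited values gave 1731 to 2548 calls, against 1956. Testing each transcript called 446, 68 higher and 378 lower, and without a fold threshold 977 genes were higher. Leaving out each library in turn gave 289 to 2206 called genes, 36 to 671 higher and 253 to 1535 lower, and 0 to 167 between 24 and 12 months. Between 24 and 12 months DESeq2 called 13, the exact test 16 and the replicate block 8. With the values as deposited 2005 genes were called, 1943 of them shared. Upper-quartile factors gave 455 higher and 1424 lower. Library numbers did not pair the samples: same-numbered deviations correlated at 0.319, 0.123 and -0.167, and not every library correlated best with its own number. The replicate block gave 1731 calls (525 higher, 1206 lower). Among the calls it removed were those of LOC108634081 and TCONS_00050903. Without 24-month replicate 1, 2 or 3, 16, 18 and 26 of the 43 named genes were no longer called. Those called in all 6 such fits were CLEC3A, DPP10, LOC102170599, LOC102178801, LOC108634205, LOC108634314, PRRT3 and SPLUNC2B among rises and CCR9, IKZF3, LOC102185549, MKI67, PRSS16, RAG1, TCONS_00008949 and TCONS_00008954 among falls. Differences under 3 counts per library were not detectable.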

Other observations

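Called genes that are neighbours in the RefSeq gene order formed 35 runs of 2 or more among the rises and 163 among the falls, of which 3 and 43 held 3 or more genes. The longest run of rises held 5 genes, EMC3, PRRT3, CRELD1, IL17RC and IL17RE, of which the last 2 encode receptors of the interleukin-17 family. The next, of 4 genes, held DUOX2, DUOXA2, DUOX1 and SHF, with both hydrogen peroxide-producing oxidases of the airway and salivary duct and a maturation factor of one of them. LPO, whose enzyme uses hydrogen peroxide, was called next to MKS1. Among the falls the longest run held 14 histone genes, and another of 10 included several CD1 genes, CD1E among them. Neighbours of 1 family can share reads, and the runs were not tested.

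Among the 15 largest rises, 3 genes picked after their values were seen differed widely between the adult libraries. LOC108634081, annotated as 40S ribosomal protein S2, was at 342, 0.897 and 487 CPM in the 24-month libraries and at 375, 0.357 and 0.563 CPM in the 12-month libraries, against at most 0.835 CPM at 1 month. TCONS_00050903, an uncharacterized gene, was at 73.4, 1.32 and 271 CPM at 24 months and at 6.03, 4.6 and 76.0 CPM at 12 months. KLHL41, a protein of the muscle sarcomere, was at 151, 39.9 and 2.1 CPM at 24 months, while TTN was at most 4.47 CPM in the same libraries.

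In 491 of the 584 genes called higher (84.1%) the lowest 1-month value was that of replicate 2, and in 930 of the 1372 called lower (67.8%) the highest was. Replicate 3 was the highest in 274 of the latter and replicate 1 in 168.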
